A study of Arabidopsis thaliana with 12 samples.

Results

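miR156, miR157 and miR172 are the microRNAs (miRNAs) of the plant age pathway, and their levels were described across 12 small RNA libraries of Arabidopsis thaliana ecotype Col-0. All entries of the deposited tables that carry the family name miR156, miR157 or miR172 were taken, whatever the strand. This gave 17 of 240 entries, of which 8 belong to miR156, 4 to miR157 and 5 to miR172. An entry is 1 mature sequence, so names that share a sequence are joined. Of these, 12 are listed for ACL5, 12 for EN7 and 15 for seedlings, and 10 are in all 12 files. An entry that a file does not list was counted as 0. All 28 names in these entries matched a gene of the RefSeq gene table (assembly TAIR10.1), which gave 18 precursor genes.

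miR156 and miR157 have closely similar guide strands and direct AGO1 to transcripts of SPL transcription factors. They are abundant in young plants and decline with age, which lets SPL proteins accumulate. SPL9, an SPL factor, activates MIR172 genes, and miR172 in turn represses AP2-like factors such as TOE1, TOE2, SMZ and SNZ, which delay flowering. In roots, miR156 and its SPL targets are also known to affect lateral root formation. The guide of miR156 and miR157 comes from the 5p arm of the precursor, and that of miR172 from the 3p arm. The opposite arm gives the partner strand, which is mostly discarded when AGO1 is loaded.

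The study compared the mutant ktn1-20 (ktn1) with wild type (WT). KTN1 encodes the catalytic subunit of katanin, which severs microtubules. In 8 libraries, ARGONAUTE1 (AGO1) tagged with GFP was pulled down from the roots of plants aged 9 days and its small RNA sequenced. The fusion was driven by the ACL5 promoter (metaxylem and procambium) or by the EN7 promoter (endodermis), each in ktn1 and in WT plants, with 2 libraries per group. All 8 therefore carry a GFP-AGO1 transgene, the WT plants included, and each layer is sampled only as far as its promoter is restricted to it. The other 4 libraries hold total small RNA of seedlings aged 14 days without a listed transgene, 2 of ktn1 and 2 of WT. No control immunoprecipitation was analysed here, and a table of mature miRNAs holds no marker transcript, so neither the layer nor the genotype labels could be checked. The labels do not say that replicates came from separate plants, so the p-values measure the spread between these libraries, which may be technical.

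Values are reads per 1000000 reads (RPM). The denominators inferred from the smallest value of each file were 5804745 to 13004041 reads in AGO1 libraries and 13769316 to 44332443 reads in seedling libraries, so 3 reads, the least told from 0, stood for 0.231 to 0.517 RPM and 0.0677 to 0.218 RPM. Such floors cover counting error only, and too few low values are listed to establish whole reads firmly, so denominators, floors and read numbers are inferences. Listed miRNAs made up 25.1% to 59.5% of all RPM in AGO1 libraries, but 1.68% to 2.45% in seedlings. RPM values therefore do not compare between the assays as shares of miRNA. Of listed miRNA, the 3 families took 0.0567% to 1.39% in AGO1 libraries and 4.48% to 6.82% in seedlings. The first principal component of the 75 other tested entries, with miR165 and miR166 left out, held 52.3% of the variance of the AGO1 libraries. On it, ACL5 ktn1 replicate 2 lay at -0.56, against -8.54 for replicate 1, and EN7 WT replicate 1 lay at -4.69, against 8.12 for replicate 2. Log2 changes that moved by over 1.5 times when these 2 libraries were left out are given with and without them. All listed miRNAs together held 59.5% and 53.6% of RPM in EN7 ktn1, against 30.7% and 37.2% in EN7 WT. For ACL5 this was 32.5% and 32.1% in ktn1, against 29.4% and 25.1% in WT. The miR165 and miR166 family took 57.9% and 64.8% of all listed miRNA in EN7 ktn1, against 40.4% and 32.7% in EN7 WT. In ACL5 its share was 4.46% and 4.69% in ktn1, against 15.9% and 17.6% in WT. Because RPM is a share of a fixed total, its part in lower values of other miRNAs was not tested beyond the rescalings given below.

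The most abundant entry was the shared guide of miR156 (miR156a-5p to miR156d-5p, miR156e and miR156f-5p). Its names match 6 precursor genes, which its reads cannot tell apart. In the ACL5 line it held 2356 and 871 RPM in ktn1 (replicates 1 and 2), against 2872 and 2845 RPM in WT. In the EN7 line it held 364 and 152 RPM in ktn1, against 1468 and 1093 RPM in WT. Total RNA of seedlings held 692 and 553 RPM in ktn1, against 969 and 1054 RPM in WT. The ktn1 libraries lay wholly below those of WT in each of the 3 sets. In bulk samples such as these, fewer cells that hold a miRNA and less of it per cell cannot be told apart. The AGO1 libraries count only what was bound to the tagged AGO1, not what was made. With its partner strands, miR156 ranked 10th to 20th among families in the AGO1 libraries by summed RPM and 6th to 8th in seedlings.

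**Figure D1:**
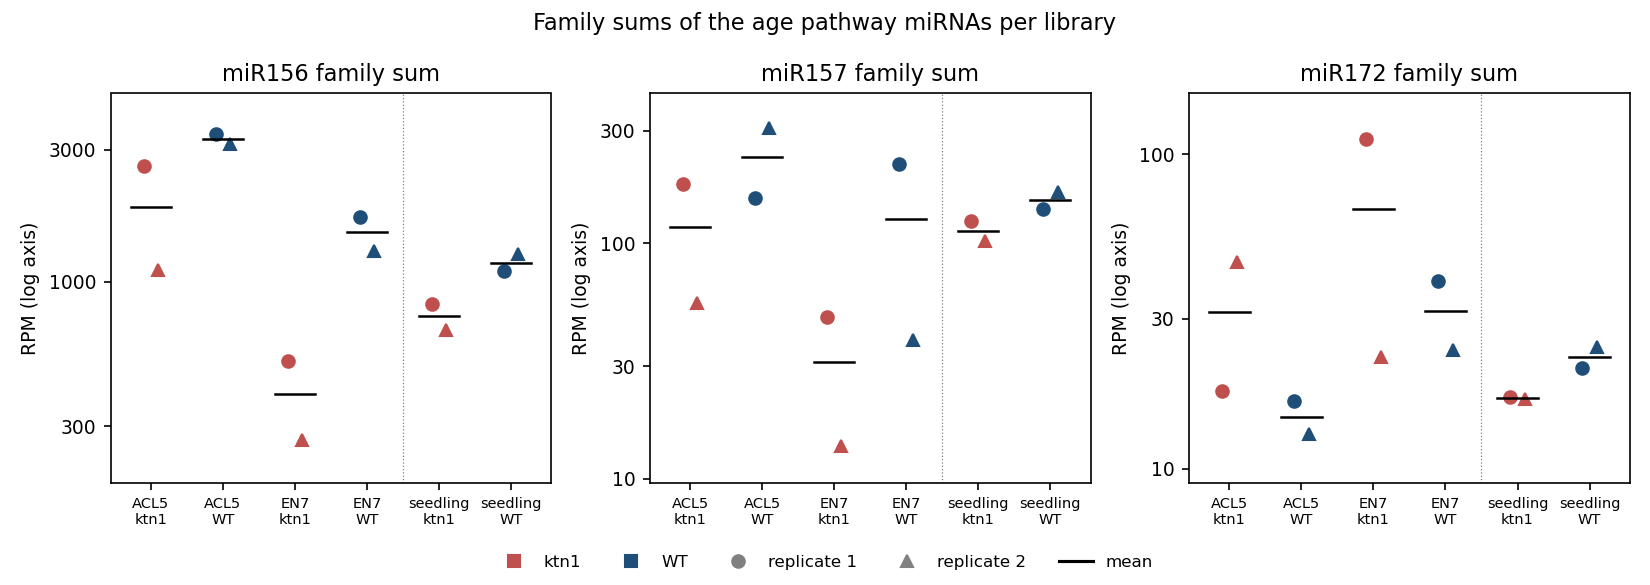
Summed RPM (log axis) of miR156, miR157 and miR172 in each library, with ktn1 in red, WT in blue, replicates as circles and triangles and the group mean as a line. The miR156 sums of ktn1 libraries lie below those of WT libraries in all 3 sets, while miR157 and miR172 sums overlap in at least 1 set.

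The group means of the shared miR156 guide in EN7 were 258 ± 150 RPM in ktn1 and 1280 ± 265 RPM in WT (SD, n = 2 each), and the log2 change was -2.42 (SE 0.67, limma adjusted p = 0.105). This did not pass the threshold of 0.05. With RPM rescaled to equal sums of all listed miRNAs the change was -3.16 (adjusted p = 0.0308), and the adjusted p ranged from 0.0308 to 0.546 over 18 alternatives. The median of the 86 tested entries was -0.47, or -1.17 after that rescaling, so the guide lay 1.96 below the median as deposited and 1.99 below it when rescaled. In ACL5 the means were 1613 ± 1050 RPM in ktn1 and 2859 ± 18.8 RPM in WT (SD, n = 2 each), and the log2 change was -0.996 (SE 0.67, adjusted p = 0.584), which was -0.28 without ACL5 ktn1 replicate 2. The ktn1 changes of the ACL5 and EN7 lines differed by 1.43 (SE 0.94, adjusted p = 0.970), so no difference between the layers was shown. In seedlings the means were 622 ± 98.2 RPM in ktn1 and 1012 ± 59.9 RPM in WT (SD, n = 2 each), and the log2 change was -0.71 (SE 0.24, adjusted p = 0.0726). Over 12 alternatives the seedling change ranged from -0.87 to -0.45, with -0.87 in the fit that leaves ktn1 replicate 2 as the lone ktn1 library. The median of the 62 tested entries was -0.13, or 0.14 with equal sums of all listed miRNAs. The guide lay 0.58 below this median as deposited and 0.60 below it when rescaled. All listed miRNAs together held 2.17% and 1.68% of RPM in ktn1 seedlings, against 2.45% and 2.12% in WT.

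Averaged over both layers, a contrast added after the values were seen, the change of the miR156 guide was -1.71 (SE 0.47, adjusted p = 0.0745). It was -1.25 (adjusted p = 0.186) without the 2 libraries that lay apart, and it passed without EN7 WT replicate 2 (-1.82, adjusted p = 0.0485) and under both rescalings (-2.20 and -1.94, adjusted p = 0.0209 and 0.0319). Over its alternatives the adjusted p ranged from 0.0209 to 0.265. Of the 52 entries tested in both fits, 2 (3.85%) had both ktn1 libraries below both WT libraries in all 3 sets. These were the miR156 guide and miR163, which targets methyltransferase transcripts, and 1 of the 52 (1.92%), the copper-responsive miR408-3p, lay above in all 3. Only 3 entries of the age pathway are among the 52.

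Both ACL5 libraries lay above both EN7 libraries for the miR156 guide in each genotype. Between the ktn1 groups it was 6.26-fold higher in ACL5, a log2 difference of 2.60 (SE 0.67, adjusted p = 0.0373). Between the WT groups the log2 difference was 1.17 (SE 0.67, adjusted p = 0.407). The median of all 86 tested entries was 0.91 in ktn1 and 0.39 in WT, so the guide lay 1.69 and 0.78 above it. With equal sums of all listed miRNAs the ktn1 median was 1.67, and the guide lay 1.73 above it. The layer difference in ktn1 passed the threshold in 10 of 18 alternatives, with adjusted p from 0.00957 to 0.201. Leaving out ACL5 ktn1 replicate 1 gave 1.89 (adjusted p = 0.201) and leaving out EN7 ktn1 replicate 2 gave 1.97 (adjusted p = 0.200). Leaving out EN7 ktn1 replicate 1 gave 3.23 (adjusted p = 0.0719), and leaving out ACL5 WT replicate 1 or 2, which are not in the contrast but share its spread, gave 0.0934 and 0.0910 as adjusted p. Rescaled to equal sums without miR165 and miR166 it was 2.10 (adjusted p = 0.0827). Without the 2 libraries that lay apart it was 3.32 (adjusted p = 0.0107). Across the 8 AGO1 libraries, the 4 lowest on the first principal component held 1468 to 2872 RPM of this guide and the other 4 held 152 to 1093 RPM. The part of this component in the differences was not tested.

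Of the 6 entries of the age pathway tested in AGO1 libraries, none passed for ktn1 against WT in ACL5, where 4.65% of all tested entries were called, and none in EN7, where 6.98% were called. At an unadjusted p under 0.05 there were 0 in ACL5 and 2 in EN7, against 17.4% of all tested entries in each. The 2 were the shared miR156 guide and miR156g, whose reads cannot be firmly separated, so they may not be 2 separate results. Of these 6 entries, 2 had both ACL5 ktn1 libraries below both ACL5 WT libraries and 1 had both above, against 23.3% and 24.4% of all tested entries. In EN7, 3 had both ktn1 libraries below both WT libraries, against 34.9% of all. For ACL5 against EN7, 1 of the 6 was called in ktn1, where 16.3% of all entries were called, and none in WT, where 3.49% were. At an unadjusted p under 0.05 there were 2 in ktn1 (again the shared guide and miR156g), against 33.7% of all, and 0 in WT, against 18.6%. None of the 6 passed for the difference of the ktn1 change between layers, where 2.33% were called, or for both layers together, where 10.5% were called. At an unadjusted p under 0.05 there were 0 for the difference, against 8.14% of all. For both layers there were 2, the same pair, against 19.8%. Both ACL5 libraries were above both EN7 libraries for 5 of the 6 in ktn1, against 53.5% of all entries. In WT this held for 3 of the 6, against 30.2% of all, and 1 lay below, against 25.6%. The median log2 change of the 6 was -0.75 in ACL5 and -1.36 in EN7, beside -0.0019 and -0.47 over all tested entries. The 11 other entries did not reach 10 RPM in 2 AGO1 libraries.

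**Figure D2:**
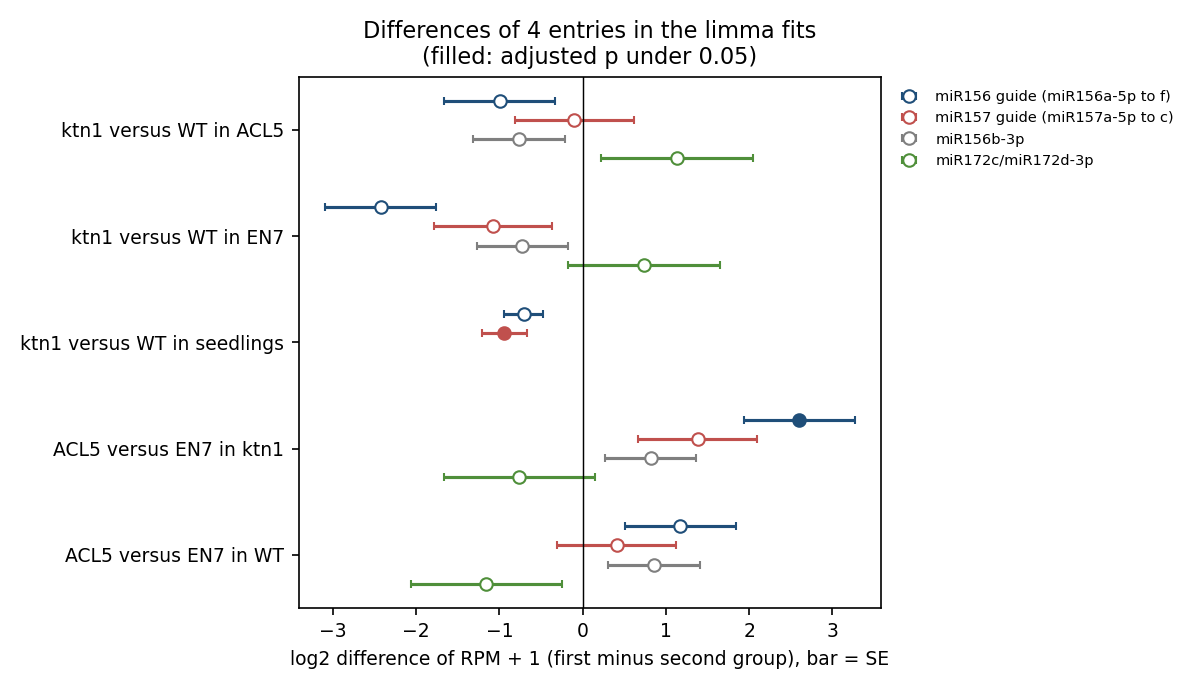
Log2 differences of RPM + 1 (points, with bars for the SE) of 4 entries in 5 comparisons, filled where the adjusted p is under 0.05. The shared miR156 guide lies below 0 for ktn1 against WT in all 3 sets, at -0.996, -2.42 and -0.71, its layer difference in ktn1 (2.60) and the seedling change of the miR157 guide (-0.94) are filled, and miR156b-3p and miR172c/miR172d-3p have no seedling point because they were not tested there.

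The partner strands of miR156 differed in kind between the assays. In AGO1 libraries nearly all of the partner strand was ath-miR156b-3p (miR156b-3p), which made up 99.2% to 99.9% of it in each library. Seedlings held 4.73% to 6.40% as miR156b-3p, with 51.9% to 58.9% as miR156c-3p and 36.2% to 42.3% as miR156a-3p. No test was made between the assays, since tissue, age and RNA fraction all differ and cannot be told apart. miR156b-3p held 240.0 and 222 RPM in ACL5 ktn1, against 538 and 288 RPM in ACL5 WT. In EN7 it held 149 and 114 RPM in ktn1, against 239 and 195 RPM in WT. The groups did not overlap in either layer, and the log2 changes were -0.77 (SE 0.55, adjusted p = 0.613) in ACL5 and -0.72 (SE 0.55, adjusted p = 0.522) in EN7. Between layers, ACL5 over EN7, it differed by 0.82 in ktn1 (adjusted p = 0.322) and 0.86 in WT (adjusted p = 0.407). With equal sums the difference in ktn1 was 1.62 and passed (adjusted p = 0.0490), and its adjusted p ranged from 0.0490 to 0.656 over 18 alternatives. Leaving out ACL5 WT replicate 1 gave -0.32 for ktn1 against WT in ACL5 and 0.41 between layers in WT, and leaving out replicate 2 gave -1.22 and 1.31.

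ath-miR156a-3p was at most 0.432 RPM in any AGO1 library, and ath-miR156c-3p at most 0.517 RPM. Seedlings held 58.1 and 48.0 RPM of miR156a-3p in ktn1, against 41.7 and 80.1 RPM in WT. For miR156c-3p they held 71.3 and 61.9 RPM in ktn1, against 67.8 and 102 RPM in WT. The genotypes overlapped for both strands. Log2 changes were -0.13 for miR156a-3p (adjusted p = 0.854) and -0.32 for miR156c-3p (adjusted p = 0.652), and the first turned to 0.12 under either rescaling to equal sums.

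**Figure D3:**
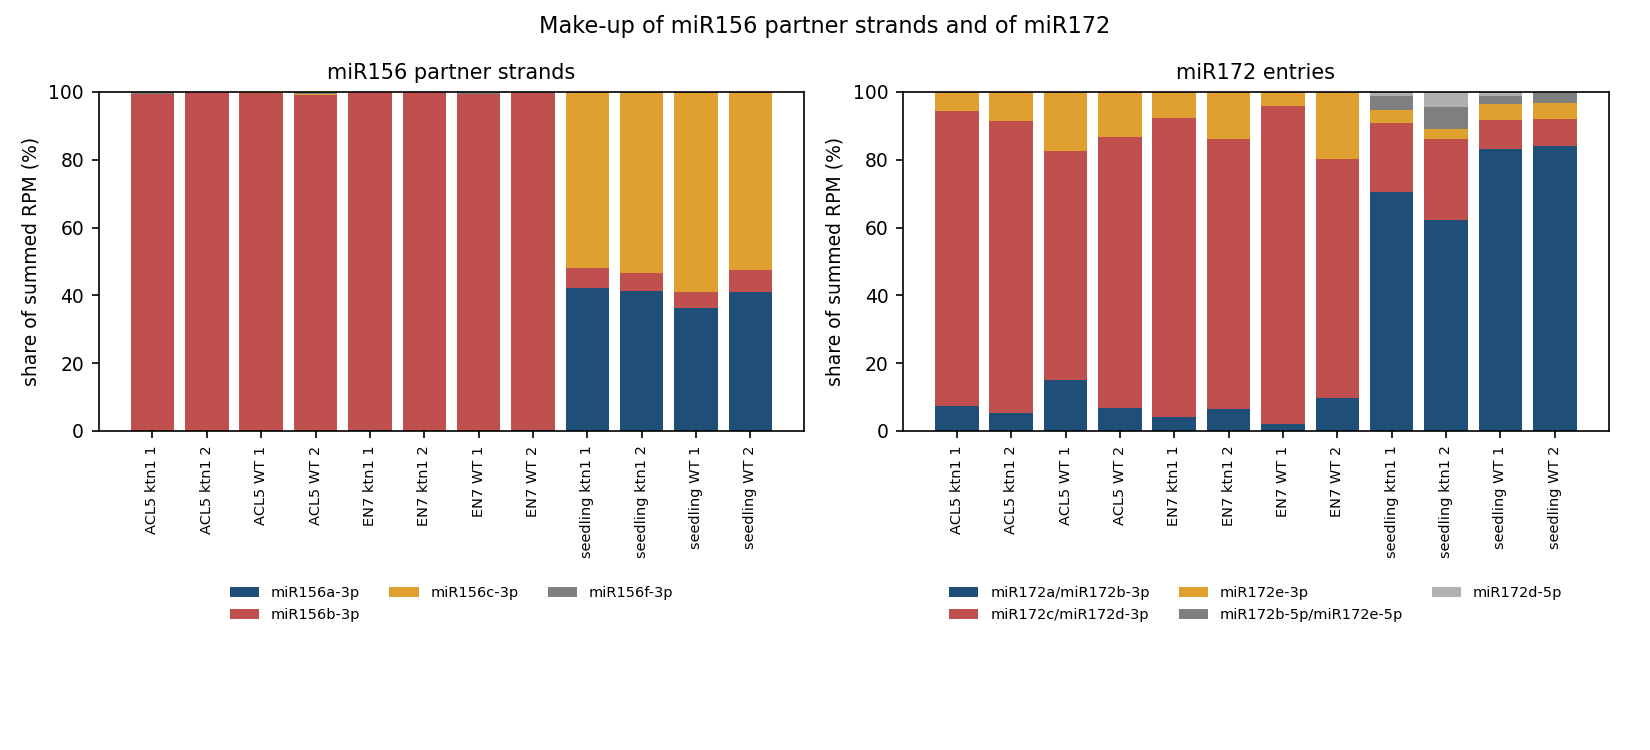
Share of summed RPM (%) taken by each entry among the miR156 partner strands and among the miR172 entries, as stacked bars per library. AGO1 libraries are dominated by miR156b-3p and miR172c/miR172d-3p, seedling libraries by miR156a-3p, miR156c-3p and miR172a/miR172b-3p.

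The guide took 90.8% and 79.8% of miR156 RPM in ACL5 ktn1, against 84.3% and 90.8% in ACL5 WT. In EN7 it took 71.1% and 57.2% in ktn1, against 86.0% and 84.8% in WT. The EN7 groups did not overlap. Seedlings had 83.5% and 82.7% in ktn1, against 89.4% and 84.5% in WT, also without overlap. These shares were not tested.

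The minor miR156 guides were low. miR156g held 16.9 and 4.80 RPM in ACL5 ktn1, against 17.3 and 14.8 RPM in ACL5 WT. In EN7 it held 2.46 and 1.18 RPM in ktn1, against 8.91 and 6.48 RPM in WT. Its share of the shared guide was 0.521% to 0.776% in AGO1 libraries, and since the sequences are near-identical its reads cannot be firmly separated from the shared guide. Its log2 changes were -0.74 (SE 0.69, adjusted p = 0.702) in ACL5, turning to 0.076 without ACL5 ktn1 replicate 2, and -1.65 (SE 0.69, adjusted p = 0.269) in EN7. Between layers it differed by 1.89 in ktn1 (adjusted p = 0.102), passing at 2.71 without ACL5 ktn1 replicate 2 (adjusted p = 0.0403) and at 2.43 with equal sums (adjusted p = 0.0300), with adjusted p from 0.00753 to 0.414 over 16 alternatives, and by 0.98 in WT (adjusted p = 0.407). miR156f-3p was at most 1.90 RPM in any library. miR156h was seen only in EN7 WT replicate 1, at 0.509 RPM. miR156j was seen in 1 ktn1 and 1 WT seedling library, at 0.135 and 1.45 RPM, and its gene overlaps SPL9, a miR156 target, in the gene table.

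The miR157 guide (miR157a-5p, miR157b-5p and miR157c-5p) was the entry that passed in seedlings. It held 58.4 and 47.0 RPM in ktn1, against 113 and 91.3 RPM in WT, with no overlap. The means were 52.7 ± 8.0 RPM in ktn1 and 102 ± 15.1 RPM in WT (SD, n = 2 each), 1.94-fold lower in ktn1. The log2 change was -0.94 (SE 0.27, adjusted p = 0.0492). It was 1 of 7 entries of the age pathway tested in seedlings and the only 1 of 62 tested entries that was called (1.61%). It stayed past the threshold in 3 of 12 alternatives, with adjusted p from 0.00121 to 0.490, and rescaling to equal sums gave an adjusted p of 0.230. It missed the threshold without WT replicate 1 (-0.79, adjusted p = 0.490), WT replicate 2 (-1.09, adjusted p = 0.402) or ktn1 replicate 2 (-0.79, adjusted p = 0.0864). The seedling fit takes its spread almost wholly from the trend over entries. Of the 7, 3 had both ktn1 libraries below both WT libraries, against 35.5% of all 62, and none had both above, against 9.68%. At an unadjusted p under 0.05 there were 3 of the 7, beside 6 of all 62, and the median log2 change of the 7 was -0.32, beside -0.13 over all 62.

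In AGO1 libraries the miR157 guide held 70.2 and 45.9 RPM in ACL5 ktn1, against 64.2 and 58.1 RPM in ACL5 WT. In EN7 it held 39.1 and 11.3 RPM in ktn1, against 63.0 and 33.3 RPM in WT. The groups overlapped in both layers, with log2 changes of -0.10 (SE 0.71, adjusted p = 0.946) and -1.08 (SE 0.71, adjusted p = 0.487), the first turning to 0.20 without ACL5 ktn1 replicate 2. The EN7 change was -0.63 without EN7 WT replicate 1, -1.93 without EN7 ktn1 replicate 1 and -0.22 without EN7 ktn1 replicate 2. Between layers the guide differed by 1.38 in ktn1 (adjusted p = 0.224), passing at 2.15 with equal sums (adjusted p = 0.0476, with a range of 0.0476 to 0.596 over 18 alternatives), and by 0.41 in WT (adjusted p = 0.753), which was 0.86 without EN7 WT replicate 1 and -0.044 without replicate 2.

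The partner strand miR157a-3p/miR157b-3p varied widely between replicates. It held 106 and 9.93 RPM in ACL5 ktn1, against 90.9 and 250 RPM in ACL5 WT. In EN7 it held 9.54 and 2.45 RPM in ktn1, against 152 and 5.33 RPM in WT. Its values fell into 2 ranges along the first principal component, with 90.9 to 250 RPM in the 4 libraries lowest on it and 2.45 to 9.93 RPM in the other 4. No member of these families enters that component, and its part in the values was not tested. The log2 changes were -2.15 (SE 1.69, adjusted p = 0.621) in ACL5 and -2.37 (SE 1.69, adjusted p = 0.500) in EN7. Each rests on 1 library: the ACL5 change was -0.50 without ACL5 ktn1 replicate 2 and -3.80 without replicate 1, and the EN7 change was -0.070 without EN7 WT replicate 1 and -4.66 without replicate 2. Between layers it differed by 2.50 in ktn1 (adjusted p = 0.322) and 2.29 in WT (adjusted p = 0.407), and without the 2 libraries that lay apart by 4.15 (adjusted p = 0.0140) and 4.58 (adjusted p = 0.0214), on 1 library in the ACL5 ktn1 and the EN7 WT groups. Over the alternatives the adjusted p ranged from 0.0140 to 0.838 in ktn1 and from 0.0214 to 0.996 in WT, where the difference was -0.0068 without EN7 WT replicate 2. The guide share of miR157 ran from 18.8% to 86.2% over AGO1 libraries. In seedlings the partner strand held 52.4 and 45.7 RPM in ktn1, against 22.0 and 55.4 RPM in WT, which overlapped. The seedling guide share was 47.1% and 46.1% in ktn1, against 80.5% and 55.3% in WT, without overlap, and was not tested. miR157c-3p was at most 1.32 RPM in AGO1 libraries and 5.30 to 18.4 RPM in seedlings. miR157d was listed above 0 only in 1 ktn1 and 1 WT library of ACL5, at 0.110 and 0.576 RPM.

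**Figure D4:**
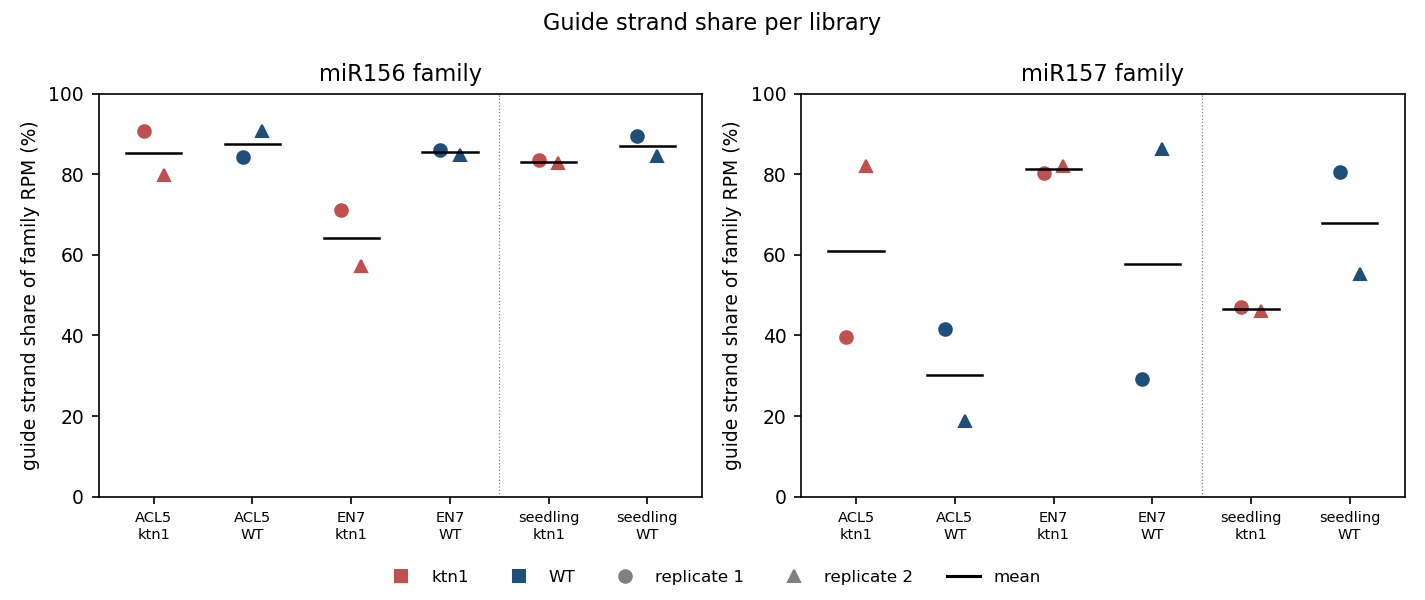
Share of family RPM (%) on the guide strand for miR156 and miR157 in each library, with ktn1 in red, WT in blue and the group mean as a line. The miR156 share is lowest in EN7 ktn1, at 71.1% and 57.2%, and the miR157 share spreads from 18.8% to 86.2% over AGO1 libraries.

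Among AGO1 libraries miR172c/miR172d-3p was the main miR172 entry, with 67.5% to 93.9% of the family. It held 15.4 and 39.3 RPM in ACL5 ktn1, against 11.1 and 10.3 RPM in ACL5 WT, with no overlap. In EN7 it held 98.4 and 18.1 RPM in ktn1, against 37.1 and 16.9 RPM in WT, which overlapped. The log2 changes were 1.13 (SE 0.91, adjusted p = 0.621) in ACL5 and 0.74 (SE 0.91, adjusted p = 0.676) in EN7, and the second was -0.45 without EN7 ktn1 replicate 1. Without the 2 libraries that lay apart they were 0.49 and 1.29. Between layers, ACL5 over EN7, it differed by -0.76 in ktn1 (adjusted p = 0.518), turning to 0.017 with equal sums and to 0.43 without EN7 ktn1 replicate 1, and by -1.16 in WT (adjusted p = 0.431). Without the 2 libraries that lay apart these differences were -1.41 and -0.61. Only 75 to 1451 reads per library, as inferred, stand behind the whole miR172 family.

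Seedlings instead held mostly miR172a/miR172b-3p, with 70.5% and 62.2% of the family in ktn1, against 83.0% and 84.0% in WT. MIR172b is known to be activated by SPL9. The entry held 11.9 and 10.4 RPM in ktn1, against 17.4 and 20.5 RPM in WT, without overlap, for which the log2 change was -0.71 (SE 0.33, adjusted p = 0.392). miR172c/miR172d-3p held 3.45 and 3.99 RPM in ktn1, against 1.82 and 1.98 RPM in WT. It was below the filter and was not tested, and its share of the family was 20.4% and 23.9% in ktn1, against 8.65% and 8.14% in WT. miR172e-3p was 0.508 to 8.46 RPM throughout. The 5p partner strands of miR172 were seen only in seedlings, at 0.0640 to 1.09 RPM.

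Summed over all entries of a family, none of the 3 families passed in any of these comparisons. The miR156 sum had log2 changes of -0.96 (SE 0.71, adjusted p = 0.611) in ACL5, -2.00 (SE 0.71, adjusted p = 0.158) in EN7 and -0.65 (SE 0.22, adjusted p = 0.0771) in seedlings for ktn1 against WT. For ACL5 against EN7 it differed by 2.19 (SE 0.71, adjusted p = 0.0805) in ktn1 and by 1.14 (adjusted p = 0.395) in WT. The miR157 sum had changes of -1.13 (adjusted p = 0.621) in ACL5, -1.77 (adjusted p = 0.361) in EN7 and -0.43 (adjusted p = 0.297) in seedlings. The miR172 sum had 0.92 (adjusted p = 0.621) in ACL5, 0.70 (adjusted p = 0.703) in EN7 and -0.41 (adjusted p = 0.287) in seedlings. Several of these sums rest on 1 library. Without ACL5 ktn1 replicate 2 the ACL5 changes were -0.33 for miR156, -0.30 for miR157 and 0.26 for miR172, and without replicate 1 they were -1.58, -1.95 and 1.58. In EN7 the miR157 sum was -0.55 without EN7 WT replicate 1 and -3.001 without replicate 2, and the miR172 sum was 1.05 without EN7 WT replicate 1 and -0.43 without EN7 ktn1 replicate 1. Of all families, 3.64% were called for ktn1 against WT in ACL5, 3.64% in EN7 and 0.0% in seedlings. For both layers together 5.45% were called and for the difference of the ktn1 change between layers 1.82%, and for ACL5 against EN7 10.9% in ktn1 and 3.64% in WT.

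The balance of the pathway was described as the log2 ratio of summed miR156 and miR157 to summed miR172, partner strands included. This ratio does not depend on the RPM denominator. In ACL5 it was 7.30 and 4.66 in ktn1, against 7.77 and 8.06 in WT. EN7 had 2.34 and 3.63 in ktn1, against 5.61 and 5.80 in WT. In seedlings it was 5.82 and 5.53 in ktn1, against 5.87 and 5.86 in WT. The ktn1 ratios lay wholly below the WT ratios in each set, with mean differences of -1.94, -2.72 and -0.19. ACL5 exceeded EN7 by 2.996 in ktn1 and by 2.21 in WT. The ACL5 difference was -0.62 without ACL5 ktn1 replicate 2 and -3.26 without replicate 1, and the layer difference in ktn1 was 4.32 and 1.68. In seedlings it was -0.048 without ktn1 replicate 2 and -0.34 without replicate 1. Each exact two-sided permutation test gave p = 0.33, the smallest that 2 libraries against 2 allow. With guide strands only, the mean differences of ktn1 from WT were -1.93 in ACL5, -3.07 in EN7 and -0.23 in seedlings. ACL5 then exceeded EN7 by 3.36 in ktn1 and by 2.23 in WT.

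**Figure D5:**
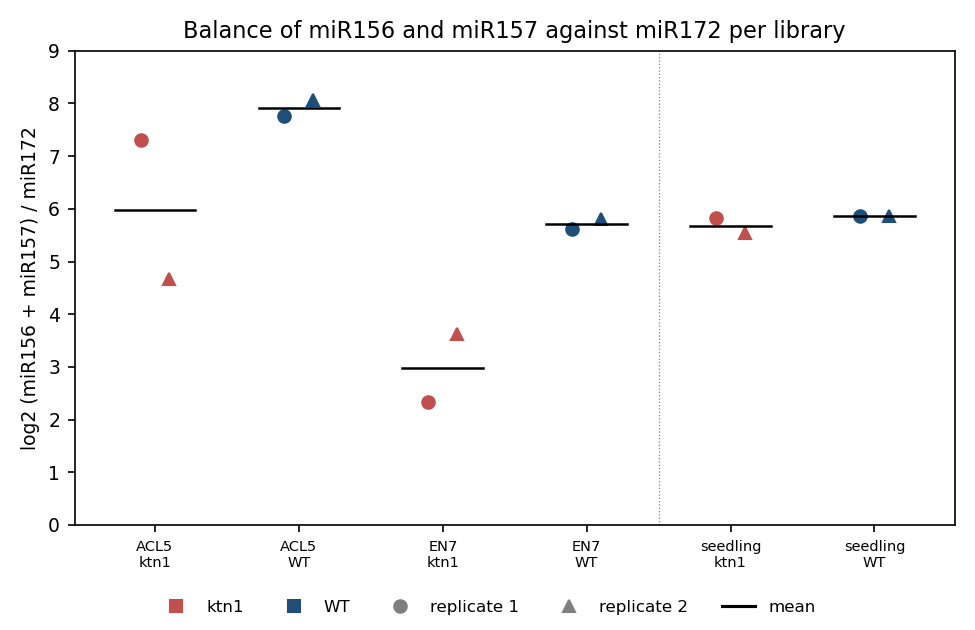
Log2 ratio of summed miR156 and miR157 to summed miR172 per library, with ktn1 in red and WT in blue. The EN7 ktn1 libraries are the lowest, at 2.34 and 3.63.

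Other miRNA families tied to developmental timing, miR159, miR390 and miR824, were counted for comparison. Of their 9 entries 6 were tested in each fit, and none passed in any comparison, with 0 at an unadjusted p under 0.05 in each. Of all tested entries, 1.61% to 16.3% were called in these comparisons, and 8.14% to 33.7% had an unadjusted p under 0.05. Their median log2 change was 0.29 in ACL5 and 0.055 in EN7 for ktn1 against WT, and -0.073 in seedlings. Over all tested entries these medians were -0.0019, -0.47 and -0.13.

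Likeness of pattern over the 8 AGO1 libraries was measured as the root mean square difference of centred log2 values, among 80 tested entries outside the families. Nearest to the miR156 sum were miR163 (0.552), miR833a-5p (0.604) and miR447a-3p/miR447b (0.620), against a median of 1.33 over the 80. miR163 held 1951 and 2142 RPM in ACL5 ktn1, against 5737 and 3831 RPM in ACL5 WT. In EN7 it held 1005 and 745 RPM in ktn1, against 1912 and 2286 RPM in WT. Nearest to the miR157 sum were miR403-5p (0.681), miR168a-3p (0.774) and miR393b-3p (0.779), with a median of 1.53, all of them partner strands of their duplexes. Nearest to the miR172 sum were miR158b (0.555), miR396a-5p (0.578) and miR158a-3p (0.596), with a median of 1.27.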

How the data were processed

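The authors deposited 1 table per library of RPM values (reads per 1000000 reads) per mature miRNA, as judged from the values. Per the submitters' processing notes, cutadapt and Bowtie were used with build TAIR10, and the reads that the denominator counts are not given in the sources used here. Each nonzero value was a whole multiple of its file's smallest one within 0.01, from which depth was inferred, though too few low values are listed to establish whole reads firmly. Groups come from the sample titles.

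Values were analysed as log2(RPM + 1), which understates changes of low miRNAs. A minimum of 10 RPM in 2 or more of the fitted libraries was required for testing with limma 3.58.1 in R 4.3.3 (lmFit, eBayes with a mean-variance trend, two-sided, Benjamini-Hochberg adjustment over all tested entries, threshold 0.05). The 8 AGO1 libraries were fitted together and the 4 seedling libraries apart, since tissue, age and assay differ; 86 and 62 entries were tested. Families were summed by number before the same test. Floors of 3 reads cover counting error only. Python 3.11.15 was used for summaries. Members and lists, including miR159, miR390 and miR824, were chosen with earlier results of these data known; entries outside the families were named by likeness of pattern. Alternatives were other pseudocounts, filters, scalings, groups, a replicate block and leaving libraries out. No count-based test was run.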

Additional observations from a re-analysis of the deposited data

How the results depend on the processing

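The values below are log2 changes unless they are counts, and "layers" means ACL5 against EN7. Of 700 values recomputed for single entries, 637 kept direction and side of the threshold, 17 lost the call, 15 gained it and 31 changed sign. Of 497 for family sums, counts and ratios, 433 kept theirs, 8 gained a call, 11 changed sign and 45 moved. The cause of these changes was not tested. Changing the filter, trend or block, or leaving out a library outside the contrast, leaves a log2 change as it was. Most single entries and all family sums had not passed in the main fit. These tallies therefore do not measure how firm the results are.

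The numbers of entries called depended on the settings. In ACL5, 4 were called, against 2 with a pseudocount of 0.1 RPM, 2 without the trend, 7 without the filter, 7 with equal sums without miR165 and miR166, 7 with only the groups compared and 9 without the 2 libraries that lay apart. The difference between layers of the ktn1 change had 2 calls, 0 without the trend (8 at an unadjusted p under 0.05) and 6 without those libraries. Layers in WT had 3, then 0 without the trend (17 at an unadjusted p under 0.05), 0 with only the groups compared and 18 without those libraries. Layers in ktn1 had 14, 34 with equal sums and 36 without those libraries. Both layers together had 9, with 5 without the filter and 4 without the trend. Seedlings had 1, with 4 without the filter and 0 with a pseudocount of 5 RPM, a filter of 50 RPM, no trend (6 at an unadjusted p under 0.05), either rescaling or the block (8 at an unadjusted p under 0.05). Leaving out 1 library gave 1 to 9 calls in ACL5, 5 to 19 in EN7, 2 to 4 for the difference, 2 to 21 for layers in ktn1, 4 to 26 for both layers and 0 to 10 in seedlings. Rescaling to equal sums moved the split of higher and lower calls from 3 and 3 to 0 and 7 in EN7, from 11 and 3 to 31 and 3 for layers in ktn1, from 3 and 6 to 1 and 9 for both layers and from 1 and 2 to 1 and 1 for layers in WT. Equal sums without miR165 and miR166 gave 1 and 6 in ACL5, where 1 and 3 were called as deposited, and 8 and 5 for layers in ktn1.

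The miR156 sum passed for layers in ktn1 with equal sums (2.99) and without the libraries that lay apart (2.81), and ranged from 1.56 to 2.81 when 1 library was left out. Over both layers it passed at -1.97 and -1.71 under the 2 rescalings. In seedlings it ranged from -0.80 to -0.49 with 1 library left out. Leaving out 1 library gave it a call for layers in ktn1 without EN7 WT replicate 1, EN7 WT replicate 2 or ACL5 ktn1 replicate 2 (adjusted p = 0.0476, 0.0445 and 0.0483, with a range of 0.0101 to 0.414 over 18 alternatives), and in seedlings without ktn1 replicate 1 (adjusted p = 0.0427, with a range of 0.0427 to 0.757 over 12 alternatives).

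Sign changes touched results that had not passed. Without the libraries that lay apart, ktn1 against WT in ACL5 was 0.076 for miR156g and 0.20 for the miR157 guide, and the difference between layers was -0.79 for the miR172 sum, -0.43 for miR157a-3p/miR157b-3p and -0.80 for miR172c/miR172d-3p. Equal sums gave -0.020 for the miR172 sum in EN7, 0.44 for miR156b-3p in the difference, 0.017 for miR172c/miR172d-3p in layers of ktn1 and 0.12 for miR156a-3p in seedlings, which was also 0.12 with equal sums without miR165 and miR166. That last rescaling gave -0.18 for the miR172 sum, -0.14 for miR157a-3p/miR157b-3p and -0.00077 for miR172c/miR172d-3p in the difference. With 1 library left out, the ranges were -1.55 to 0.076 for miR156g and -0.40 to 0.20 for the miR157 guide in ACL5, and in EN7 -0.43 to 1.82 for the miR172 sum and -0.45 to 1.93 for miR172c/miR172d-3p. For the difference they were -0.58 to 1.87 for the miR157 sum, -0.90 to 1.35 for the miR172 sum, -0.49 to 0.41 for miR156b-3p, -2.08 to 2.51 for miR157a-3p/miR157b-3p and -0.80 to 1.59 for miR172c/miR172d-3p. For layers in WT they were -0.0068 to 4.58 for miR157a-3p/miR157b-3p and -0.044 to 0.86 for the miR157 guide, and in ktn1 -1.93 to 0.32 for the miR172 sum and -1.95 to 0.43 for miR172c/miR172d-3p. In seedlings they were -0.59 to 0.33 for miR156a-3p, -0.17 to 1.12 for miR157a-3p/miR157b-3p and -0.69 to 0.34 for miR157c-3p.

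With the replicate number as a block, the miR156 guide passed in EN7 (limma adjusted p = 0.0408) and over both layers (0.0443), and the miR157 guide did not pass in seedlings (0.322). Same-numbered libraries' deviations correlated by -0.48 in ACL5, 0.42 in EN7 and 0.18 in seedlings. For layers they correlated by -0.17 in WT and 0.013 in ktn1. With 2 libraries per group, these values cannot tell whether the numbers mark shared batches. Crossing the replicate numbers, chosen after seeing the data, gave 4 calls in ACL5 and 2 for layers in WT. The planned edgeR alternatives were not run, because too few low values are listed to establish whole reads. The same limit holds for the inferred denominators, floors and read numbers. Where a lone library remains in a group, it is assumed to vary like the others. Depth limits miR172 and the minor entries.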
